A study of Mus musculus with 10 samples.

Results

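The genes described here are 10 mouse genes of platelet granules and of platelet shedding: Pf4, Ppbp, Thbs1, Vwf and F5 (soluble cargo of the alpha granule), Selp (an alpha granule membrane protein), Nbeal2 (granule assembly), Rab27b (granule docking), Tubb1 (the microtubules of proplatelets) and Plek (a signalling substrate of activated platelets). They were listed by name, and all 10 were found among the 55359 genes of the deposited expression table by Ensembl identifier, and all 10 were among the 18742 genes tested. RNA was sequenced from Lin− bone marrow cells, obtained with a kit that depletes cells bearing markers of mature lineages, of 5 Dhx9f/f (WT) and 5 Dhx9f/f;MX1 (cKO) libraries. Both genotypes carry floxed Dhx9, which encodes an RNA and DNA helicase. In the cKO mice, the Mx1 promoter, which responds to interferon, drives Cre recombinase and so deletion follows injection of poly(I:C), a double-stranded RNA analog, with analysis a week after the first injection by the general methods. Whether the sequenced WT mice were given poly(I:C), how old the mice were and whether each library came from a separate mouse are not stated in the sources used here, so p-values measure the spread between these libraries, and poly(I:C) and genotype cannot be told apart if only one genotype was injected.

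Megakaryocytes are the bone marrow cells that make platelets. As they mature they fill alpha granules with chemokines, adhesive proteins and clotting factors, fill dense granules with small molecules, and then extend long microtubule-driven processes, the proplatelets, from which platelets are shed into the blood. Transcripts of this cargo are among the most abundant of the lineage and begin to appear in megakaryocyte progenitors, which Lin− marrow can hold.

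All 10 genes were lower in the libraries labelled cKO, with log2 fold changes from -1.23 (Selp) to -3.04 (Ppbp) and a median of -2.22. A gene was called lower at an adjusted p under 0.05 and a fall of at least 2-fold, by limma on log2(FPKM + 0.1) with Benjamini-Hochberg adjustment over all genes tested. By the same rule 16.8% of all genes tested were called lower and 4.60% higher, and over all of them the log2 fold change had a median of -0.11. For 8 of the 10, every library labelled cKO lay below every WT library, as did 21.6% of all genes tested. Because whole cell populations were sequenced, fewer megakaryocyte lineage cells and less of these transcripts per cell cannot be told apart.

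Dhx9 itself went against the labels, at 65.43 to 72.42 FPKM in WT libraries and 130.82 to 156.49 in the others, so the latter are called libraries labelled cKO throughout. Libraries held an estimated 13794108 to 18822285 fragments by the steps of the low values. The female-specific transcript Xist was at 99.19 to 127.76 FPKM in WT 3, WT 4 and WT 5 and at 0.09 or lower in the other 7 libraries, so sex was unevenly spread over the labels. Library WT 1 stood apart from the other WT libraries in most of these 10 genes, and results are given with and without it.

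The soluble cargo of the alpha granule was led by a pair of CXC chemokines. Ppbp (ENSMUSG00000029372), the precursor of the neutrophil-attracting NAP-2, was at 100.49, 671.08, 461.08, 361.68 and 395.29 FPKM in WT 1 to WT 5. In cKO 1 to cKO 5 it was at 67.12, 37.71, 46.2, 21.4 and 47.33 FPKM. The labels did not overlap, although WT 1 lay far nearer to the libraries labelled cKO than to the other WT libraries. Its log2 fold change was -3.04 ± 0.46 (SE, n = 5 and 5; limma, Benjamini-Hochberg adjusted p = 4.56e-04), an 8.20-fold fall, and -3.47 without WT 1.

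Pf4 (ENSMUSG00000029373), platelet factor 4, the heparin-binding chemokine CXCL4, was at 107.99, 416.35, 283.13, 253.74 and 290.29 FPKM in WT 1 to WT 5. It was at 79.57, 23.88, 37.68, 50.72 and 75.36 FPKM in cKO 1 to cKO 5. Again the labels did not overlap and WT 1 was the lowest WT library. Pf4 fell by 2.35 ± 0.40 on the log2 scale (limma, Benjamini-Hochberg adjusted p = 7.84e-04) and by 2.65 without WT 1. The genes are neighbours on chromosome 5 of GRCm39 on the plus strand, Ppbp from 90916371 to 90917930 and Pf4 from 90918479 to 90922110, 548 bases apart. The ratio of Ppbp to Pf4 FPKM was 0.931 in WT 1 and 1.36 to 1.63 in the other WT libraries, and 0.422 to 1.58 in those labelled cKO, so the paired genes did not keep a fixed ratio. Cxcl5, the next chemokine gene on the other side of Ppbp, was low at 1.39 to 4.86 FPKM in WT libraries and was called lower too (log2 fold change -3.12 ± 0.39), whereas Cxcl1, Cxcl2, Cxcl3 and Cxcl15 were under the expression filter.

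Thbs1 (ENSMUSG00000040152; chromosome 2, 117941974 to 117957616, plus strand) encodes thrombospondin 1, an adhesive glycoprotein released on platelet activation. It was at 12.66, 93.33, 71.53, 56.98 and 58.35 FPKM in WT 1 to WT 5 and at 18.61, 11.55, 19.12, 6.73 and 27.67 in cKO 1 to cKO 5. WT 1 was lower here than 3 of the 5 libraries labelled cKO, so the labels overlapped only through that library. The log2 fold change was -1.70 ± 0.53 (limma, Benjamini-Hochberg adjusted p = 0.0223), and -2.18 ± 0.36 without WT 1 (limma, adjusted p = 0.00137). The call was lost by a narrow margin without WT 2 (limma, adjusted p = 0.0547), WT 3 (0.0507), cKO 2 (0.0519) or cKO 4 (0.0530).

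Vwf (ENSMUSG00000001930; chromosome 6, 125523737 to 125663642, plus strand), von Willebrand factor, tethers platelets to exposed collagen. Its FPKM were 4.76, 16.21, 11.16, 10.42 and 11.54 in WT 1 to WT 5 and 2.73, 0.95, 1.28, 1.3 and 2.18 in cKO 1 to cKO 5. The labels were well separated, and WT 1 was again the lowest WT library. Vwf had a log2 fold change of -2.61 ± 0.34 (limma, Benjamini-Hochberg adjusted p = 2.18e-04) and -2.87 without WT 1. Endothelial cells also make Vwf. Of 11 endothelial markers tested 4 were called lower (Tie1, Kdr, Emcn and Cdh5) and 0 higher, with a median log2 fold change of -0.83, and 1 of them with a pseudocount of 1. Tie1, the most abundant of the 4, went from a mean of 3.32 to 0.408 FPKM, and the cadherin Cdh5 was at 0.57 FPKM or lower in each library (-1.37). Summed over the whole endothelial list, FPKM was 14.9 to 20.8 in WT libraries and 12.4 to 19.7 in those labelled cKO. Egfl7, the most abundant of the list, was at a mean of 6.10 FPKM in the former and 11.8 in the latter, and was not called. The part of endothelial cells in the Vwf values was not tested.

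F5 (ENSMUSG00000026579; chromosome 1, 163979289 to 164047846, plus strand), the cofactor of the enzyme that makes thrombin, was at 5.85, 17.98, 12.57, 12.88 and 14.08 FPKM in WT 1 to WT 5. In cKO 1 to cKO 5 it was at 3.88, 1.66, 2.44, 1.42 and 3.19 FPKM. The labels did not overlap, and F5 fell by 2.29 ± 0.33 on the log2 scale (limma, Benjamini-Hochberg adjusted p = 3.39e-04) and by 2.55 without WT 1.

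Selp (ENSMUSG00000026580; chromosome 1, 163942833 to 163977595, plus strand) lies 1693 bases before F5 and encodes P-selectin, the granule membrane protein that activated platelets display to bind leukocytes. It was at 2.58, 6.67, 5.07, 4.59 and 6.43 FPKM in WT 1 to WT 5 and at 2.67, 0.9, 1.81, 1.37 and 5.05 in cKO 1 to cKO 5. Library cKO 5 reached the WT range and cKO 1 lay just above WT 1, so this was the weakest separation of the 10. The log2 fold change was -1.23 ± 0.41 (limma, Benjamini-Hochberg adjusted p = 0.0315). Without WT 1 it was -1.45 (limma, adjusted p = 0.0184) and without cKO 5 it was -1.56 (limma, adjusted p = 0.00456). The call was lost without WT 2 (limma, adjusted p = 0.0723), WT 3 (0.0573), WT 4 (0.0549), WT 5 (0.0729), cKO 2 (0.0716), cKO 3 (0.0597) or cKO 4 (0.0717), so it turned on which library was left out. Slc19a2, a thiamine transporter gene beyond F5, was called higher (log2 fold change 1.80).

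**Figure D1:**
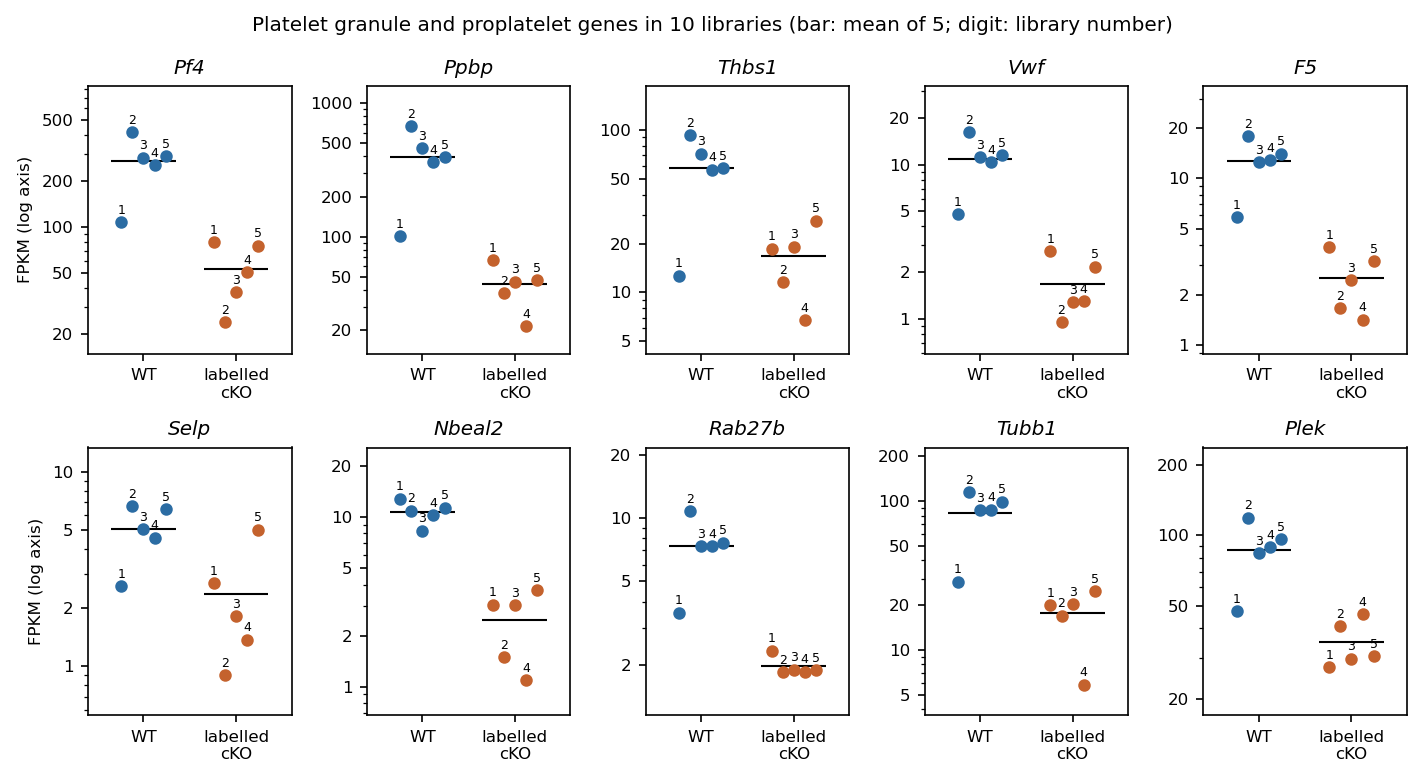
FPKM (log axis, its range set for each gene) of the 10 genes in 5 WT libraries and 5 libraries labelled cKO; each point is a library with its number and the bar is the mean. WT 1 is the lowest WT library for all but Nbeal2, and only Thbs1 and Selp overlap between the labels.

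Promoter sequence is shown for 4 of these genes, since they fell together and the windows of the most abundant pair hold less of the motifs searched than those of Vwf and Thbs1. Windows ran from 250 bases before to 50 after the start of the canonical transcript in GRCm39, and were searched on both strands for the letters AGATAA or TGATAA, also with G as the final letter (GATA factors), AGGAAG (ETS factors), TGAGTCA (NF-E2 and AP-1) and TGTGGT (RUNX factors). An AGGAAG match was found in 7 of the 10 windows, against 34.5% of the 18623 windows of all genes tested. TGAGTCA was found in Thbs1 alone, at 2 sites, against 4.09% of all windows, and TGTGGT in Vwf and Nbeal2, against 16.0%. The GATA letters were found in 1 of the 10, Vwf, against 27.3%. A match is a description of the letters and no match says only that these letters are not in this window. The 250 bases before the start are printed on the plus strand, with matches to either strand in capitals, for Vwf (chr6:125529661-125529910), Thbs1 (chr2:117941724-117941973), Ppbp (chr5:90916121-90916370) and Pf4 (chr5:90920007-90920256). The starts of Vwf and Pf4 lie inside the annotated gene, which has longer transcripts.
Vwf: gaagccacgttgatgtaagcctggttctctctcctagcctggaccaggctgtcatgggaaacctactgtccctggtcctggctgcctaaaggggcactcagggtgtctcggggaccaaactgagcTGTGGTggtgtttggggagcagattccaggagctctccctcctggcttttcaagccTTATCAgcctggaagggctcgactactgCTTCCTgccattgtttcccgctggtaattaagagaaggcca
Thbs1: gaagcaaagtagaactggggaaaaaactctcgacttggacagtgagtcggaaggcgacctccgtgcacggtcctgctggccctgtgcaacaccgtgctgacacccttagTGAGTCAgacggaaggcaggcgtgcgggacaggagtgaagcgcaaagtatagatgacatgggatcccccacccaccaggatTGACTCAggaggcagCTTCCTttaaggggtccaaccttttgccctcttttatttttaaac
Ppbp: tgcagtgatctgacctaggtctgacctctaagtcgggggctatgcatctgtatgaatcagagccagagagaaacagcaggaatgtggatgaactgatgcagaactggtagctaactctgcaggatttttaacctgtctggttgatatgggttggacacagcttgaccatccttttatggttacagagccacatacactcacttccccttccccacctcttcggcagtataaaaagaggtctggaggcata
Pf4: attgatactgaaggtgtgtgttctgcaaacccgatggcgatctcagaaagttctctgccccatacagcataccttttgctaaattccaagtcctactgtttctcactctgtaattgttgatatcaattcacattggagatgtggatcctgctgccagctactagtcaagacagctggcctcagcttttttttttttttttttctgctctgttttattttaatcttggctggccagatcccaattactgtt
In Vwf the capitals mark, in order, a RUNX match on the plus strand and GATA and ETS matches on the opposite strand, the ETS match ending 36 bases before the start. In Thbs1 they mark a TGAGTCA match on each strand and then an ETS match, which ends 40 bases before the start. Ppbp and Pf4 hold no capitals, and the ETS match of Pf4 lies 28 to 33 bases after its start, outside the printed stretch. In the 250 bases alone AGGAAG was found in 6 of the 10 genes, against 29.0% of all genes.

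Granule assembly and docking were represented by Nbeal2 and Rab27b. Nbeal2 (ENSMUSG00000056724; chromosome 9, 110453857 to 110483322, minus strand), a BEACH domain protein whose loss causes gray platelet syndrome, in which alpha granules lack cargo, was at 12.83, 10.88, 8.29, 10.25 and 11.37 FPKM in WT 1 to WT 5. It was at 3.05, 1.49, 3.03, 1.09 and 3.72 FPKM in cKO 1 to cKO 5. Nbeal2 was the exception in WT 1, where it was the highest of the WT libraries. It fell by 2.19 ± 0.30 on the log2 scale (limma, Benjamini-Hochberg adjusted p = 2.77e-04) and by 2.12 without WT 1.

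Rab27b (ENSMUSG00000024511), a small GTPase that docks granules at the membrane and takes part in proplatelet formation, was at 3.55, 10.8, 7.32, 7.32 and 7.63 FPKM in WT 1 to WT 5. It was at 2.34, 1.85, 1.9, 1.86 and 1.89 FPKM in cKO 1 to cKO 5, the tightest group of any of these genes (1.97 ± 0.21, SD, n = 5). The labels did not overlap, and the log2 fold change was -1.77 ± 0.24 (limma, Benjamini-Hochberg adjusted p = 2.64e-04). Its relative Rab27a, used for granule release in other blood cells as well, was more abundant and also called lower, at 29.67 to 43.02 FPKM in WT libraries and 2.64 to 12.65 in those labelled cKO (log2 fold change -2.62 ± 0.41). Rab27a in WT 1 was at 119% of the mean of WT 2 to WT 5, where Rab27b was at 42.9%.

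Tubb1 (ENSMUSG00000016255; chromosome 2, 174292488 to 174299675, plus strand), the beta-tubulin of the platelet marginal band, was at 28.82, 114.43, 86.49, 87.35 and 99.21 FPKM in WT 1 to WT 5. In cKO 1 to cKO 5 it was at 19.99, 17, 20.39, 5.86 and 24.8 FPKM. The labels did not overlap, WT 1 being the WT library nearest to those labelled cKO. Tubb1 fell by 2.24 ± 0.44 on the log2 scale (limma, Benjamini-Hochberg adjusted p = 0.00192) and by 2.59 without WT 1. Other beta-tubulin genes differed from it in value. Tubb5 and Tubb4b, the most abundant, had log2 fold changes of 0.05 ± 0.09 and 0.09 ± 0.11 and were not called. Of the low ones, Tubb6 was called lower (-1.76) and Tubb3 higher (1.41), though the latter was at 3.27 FPKM or lower in each library and lost its call with a pseudocount of 1 or a term for Xist.

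Plek (ENSMUSG00000020120; chromosome 11, 16921206 to 17002381, minus strand), pleckstrin, the main protein kinase C substrate of platelets and also made by other white cells, was at 47.32, 118.98, 83.89, 88.88 and 96.16 FPKM in WT 1 to WT 5. It was at 27.25, 40.82, 29.68, 45.95 and 30.44 FPKM in cKO 1 to cKO 5. The labels did not overlap, but cKO 4 at 45.95 came close to WT 1 at 47.32. The log2 fold change was -1.29 ± 0.23 (limma, Benjamini-Hochberg adjusted p = 0.00113), smaller than that of the other 8 genes besides Selp.

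**Figure D2:**
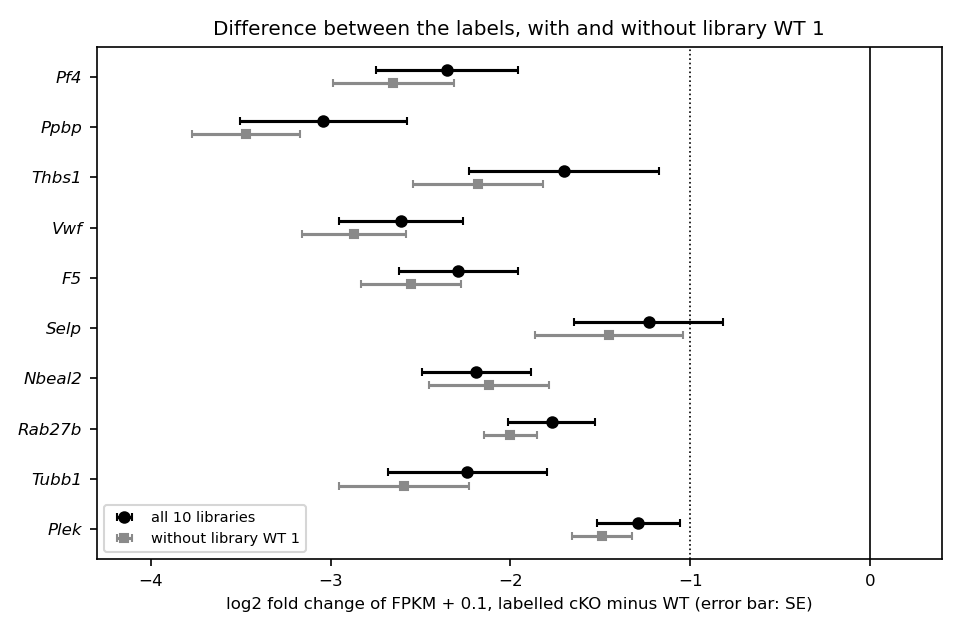
Log2 fold change (labelled cKO minus WT, on log2(FPKM + 0.1)) of the 10 genes with all libraries (circles) and without WT 1 (squares); bars are standard errors and the dotted line marks a fall of 2-fold. Leaving out WT 1 moved 9 genes to larger falls and Nbeal2 from -2.19 to -2.12.

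Levels per length of transcript fell into tiers. In WT libraries the mean FPKM was 398 ± 205 for Ppbp and 270 ± 110 for Pf4, then 87.0 ± 26.0 for Plek, 83.3 ± 32.5 for Tubb1 and 58.6 ± 29.5 for Thbs1 (SD, n = 5). The low tier held F5 (12.7 ± 4.38), Vwf (10.8 ± 4.08), Nbeal2 (10.7 ± 1.66), Rab27b (7.32 ± 2.57) and Selp (5.07 ± 1.65). Neighbours within a tier overlapped in mean ± SD, and the tiers did not. In the libraries labelled cKO the order of the means changed at the top, with Pf4 (53.4 ± 23.9) above Ppbp (44.0 ± 16.6), and at the bottom, where Vwf (1.69 ± 0.74) was the lowest, but these neighbours too overlapped in mean ± SD. Summed over the 10 genes, FPKM was 894.09 to 1476.71 in WT 2 to WT 5, 326.85 in WT 1 and 137.7 to 227.21 in the libraries labelled cKO.

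Among the libraries labelled cKO, no single one set the low values. Library cKO 4 was the lowest for 5 genes (Ppbp, Thbs1, F5, Nbeal2 and Tubb1), cKO 2 for 4 (Pf4, Vwf, Selp and Rab27b) and cKO 1 for Plek. The highest values came from cKO 1 for 5 genes and from cKO 5 for 4, and cKO 4 was the highest for Plek.

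Library WT 1 was the lowest WT library for 9 of the 10 genes and WT 2 the highest for the same 9. As a percent of the mean of WT 2 to WT 5, WT 1 was at 18.1 for Thbs1, 21.3 for Ppbp, 29.8 for Tubb1 and 34.7 for Pf4. Vwf (38.6), F5 (40.7), Rab27b (42.9), Selp (45.3) and Plek (48.8) were less low, and Nbeal2 was at 126. In 7 of the 10 genes WT 1 was under 0.5 times the lowest other WT library, against 1.77% of all genes tested, and none of the 10 was so in any other WT library. Of 16 platelet surface receptors, 15 were lowest among WT libraries in WT 1, with a median of 34.7% and a summed FPKM of 183.5, between the 375.4 to 536.2 of WT 2 to WT 5 and the 75.4 to 120.9 of the libraries labelled cKO. Medians of the marker lists of other lineages were 99.6% for erythroid, 106% for neutrophil, 118% for monocyte and macrophage, 120% for mast cell and basophil, 95.3% for stem cell and 85.7% for endothelial genes. Among the last groups Esam (24.8%), Kdr (27.0%) and Slamf1 (29.6%) were low in WT 1, and stem cell markers summed to 15.1 FPKM there against 20.9 to 23.6 in WT 2 to WT 5. Of the other tested stem cell markers, Ctnnal1, Mecom and Mllt3 were at 87.2% to 95.3% in WT 1. Robo4, Fgd5, Hlf and Procr were at 108% to 243%. The part of the library in these values was not tested. All 10 genes were called lower without WT 1, but the share of all genes called lower in that refit is not given here. The 16.8% given above is from the fit with WT 1.

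**Figure D3:**
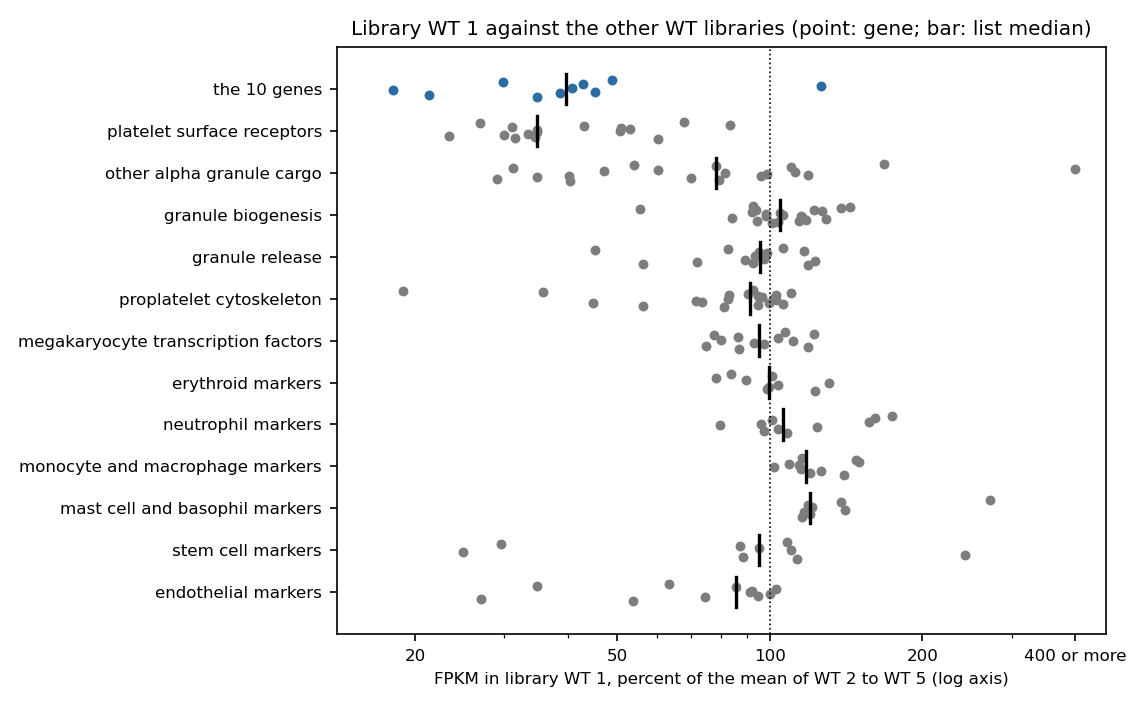
FPKM in library WT 1 as a percent of the mean of WT 2 to WT 5 (log axis) for the tested genes of 13 lists; each point is a gene and the bar is the median of the list (a gene above 400 is drawn there, and Tpsb2 and Mcpt4, at 0 in WT 1, are not drawn). The medians are 39.6 for the 10 genes and 34.7 for the platelet surface receptors, and 78.5 to 120 for the other lists.

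The other genes of these pathways moved unevenly. The lists came from general knowledge and are given by counts, beside the 16.8% called lower and 4.60% called higher among all genes tested. Of 19 other alpha granule cargo genes tested, 14 passed the test as lower and 0 as higher (median log2 fold change -1.88). Srgn, the proteoglycan core that retains granule cargo, was the most abundant at 217.79 to 301.34 FPKM in WT libraries and 116.82 to 173.8 in those labelled cKO, and its fall (-0.84 ± 0.12) stayed under 2-fold. F13a1, the clot-stabilising factor XIII subunit, and Fn1, fibronectin, had far larger falls (-4.09 ± 0.81 and -5.58 ± 0.89), and monocytes make both as well.

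Of 21 granule biogenesis genes, which sort cargo into alpha and dense granules, 5 were called lower and 1 higher. This was near the 16.8% and 4.60% of all genes tested, and the median was -0.22 against -0.11 over all of them. Lyst, a lysosomal trafficking regulator mutated in Chediak-Higashi syndrome, was the most lowered (-1.96 ± 0.27), and Rab38, a GTPase of lysosome-related organelles, was called higher (1.12 ± 0.19). Ap3b1, a subunit of the AP-3 sorting complex, was at 29.62 to 36.97 FPKM in WT libraries and 31.19 to 38.69 in those labelled cKO, with a log2 fold change of 0.09 ± 0.08. Gfi1b, a repressor needed for both megakaryocytes and red cells, was at 45.89 to 67.44 and 82.45 to 114.27 FPKM, higher in every library labelled cKO (0.88 ± 0.12; limma, Benjamini-Hochberg adjusted p = 2.48e-04) but short of the 2-fold threshold.

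Of 17 granule release genes 5 passed as lower and 1 as higher (median -0.35). Rasgrp2, the calcium-responsive activator of Rap1 that switches on platelet integrins, was called lower (-3.02 ± 0.41), and Rab4a, a recycling GTPase, higher (1.17 ± 0.11). Vamp8, the main vesicle SNARE of platelet release, and Fermt3, the integrin activator kindlin-3, had log2 fold changes of 0.09 ± 0.08 and -0.35 ± 0.08 and were not called. Of 20 proplatelet cytoskeleton genes 8 passed as lower and 0 as higher (median -0.84). Tpm4, a tropomyosin needed for normal platelet numbers, was the most lowered (-2.93 ± 0.33). Pfn1 and Cdc42, widely expressed actin regulators, had log2 fold changes of -0.08 ± 0.09 and -0.52 ± 0.05 and were not called. Cdc42 fell by less than 2-fold, but every library labelled cKO lay below every WT library (limma, adjusted p = 7.93e-05).

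Transcription factors of the lineage were split. Of 12 tested, 6 passed as lower and 0 as higher (their median at about the 2-fold threshold). Fli1, an ETS factor that drives late megakaryocyte genes, was at 19.54 to 28.11 FPKM in WT libraries and 2.5 to 8.47 in those labelled cKO (-2.21 ± 0.28), and Runx1 was called lower too (-1.11 ± 0.11), though not with a pseudocount of 1, median-ratio scaling or quantile normalization. Gata1 and its cofactor Zfpm1, shared with the red cell lineage, had log2 fold changes of 0.81 ± 0.12 and 0.65 ± 0.16, above 0 but under 2-fold. Platelet surface receptors moved most like the 10 genes in size, with 14 of 16 called lower and 0 higher (median -2.32). Itga2b and Itgb3, the chains of the fibrinogen receptor, had log2 fold changes of -1.94 ± 0.21 and -2.06 ± 0.37, and Gp6, the collagen receptor, -3.63 ± 0.36. Gp5, of the von Willebrand factor receptor complex, was at 9.81 to 41.12 FPKM in WT libraries and 7.66 to 22.07 in those labelled cKO and was not called (-0.64 ± 0.39; limma, adjusted p = 0.213). Without WT 1 its log2 fold change was -0.98 (limma, adjusted p = 0.0227), and all 5 libraries labelled cKO lay below WT 2 to WT 5. CD41, the product of Itga2b, is among the lineage markers of the flow cytometry described by the study, and whether the depletion kit targets it is not given in the sources used here. Itga2b was at 41.36 to 79.21 FPKM in WT libraries and 11 to 22.88 in those labelled cKO.

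**Figure D4:**
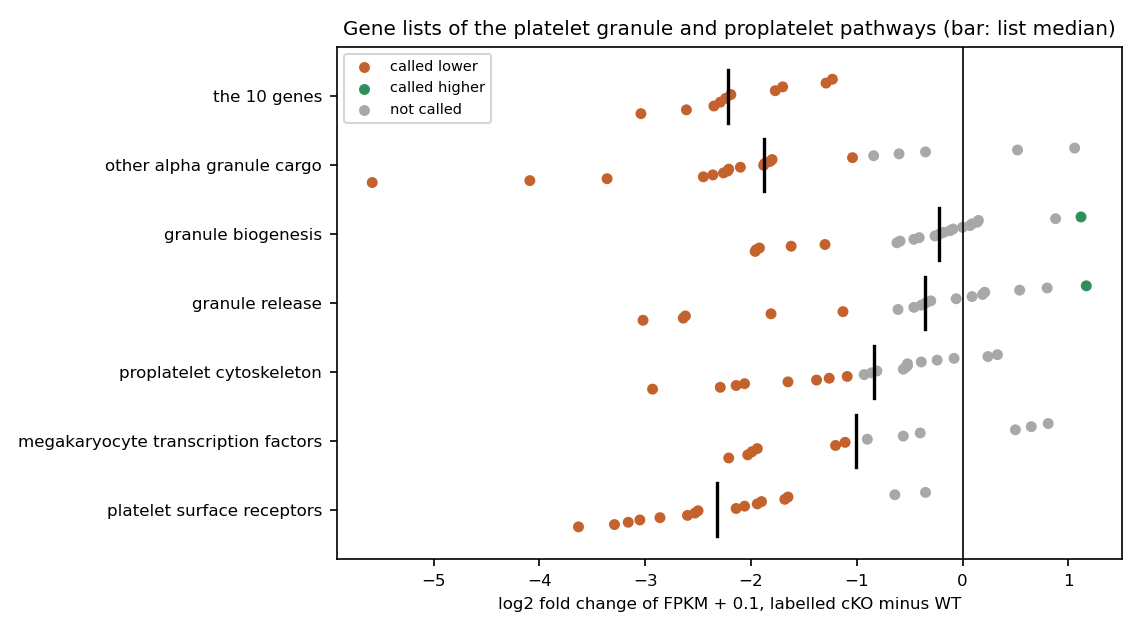
Log2 fold change (labelled cKO minus WT, on log2(FPKM + 0.1)) of each tested gene of 7 lists, coloured by call; the bar is the median of the list. Medians run from -0.22 (granule biogenesis) to -2.32 (platelet surface receptors), and -2.22 for the 10 genes.

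Markers of other lineages moved with the labels as well. Of 10 monocyte and macrophage markers 9 were called lower (median -4.31), with summed FPKM of 748.9 to 1361.7 in WT libraries and 4.3 to 210.8 in those labelled cKO. For neutrophil markers 4 of 10 were called lower and 0 higher, with log2 fold changes spread from -3.30 to 1.43 (median -0.72). Their sums were 2725.3 to 3698.3 FPKM in WT libraries and 147.2 to 2598.3 in those labelled cKO. For mast cell and basophil markers 6 of 10 were called lower and 2 higher. The 2 were Tpsb2 and Mcpt4, which were at 1.26 FPKM or lower in each library and lost their calls with a pseudocount of 1. Stem cell markers were called lower in 7 of 9 cases and higher in 0, 4 of these 7 averaging under 1 FPKM. The count lower was 2 with a pseudocount of 1, 3 when genes under that average were dropped, and 4 (with 1 higher) under quantile normalization. Erythroid markers went the other way, with 5 of 9 called higher and 0 lower and sums of 525.9 to 1436.3 in WT libraries and 1914.6 to 3046.0 in those labelled cKO. Stromal markers were low in all libraries, at sums of 14.6 FPKM or less, with 3 of 6 called lower and 1, Col1a2, higher, a call lost with the replicate number as a block, with a term for Xist, and without WT 3, WT 4, WT 5, cKO 2, cKO 3 or cKO 4. The part of cell composition in the falls of the 10 genes was not tested.

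The nearest neighbours described here did not move as a block. Besides Ppbp, Pf4, Selp and F5 themselves, Cxcl5 and Cd9, which encodes a platelet tetraspanin next to Vwf, were called lower and Slc19a2 higher. Beside Tubb1, Ctsz and Atp5f1e had log2 fold changes of -0.91 and -0.10, and beside Plek, Fbxo48 and Ppp3r1 of -0.03 and -0.14. Ccdc12 and Nradd, beside Nbeal2, had -0.83 and -0.47, and Rasgrp1, before Thbs1, had -0.17. Ccdc68, beside Rab27b, had -0.64, and none of these 8 was called. Ctsz and Ccdc12 fell by less than 2-fold, but for both every library labelled cKO lay below every WT library (limma, adjusted p = 4.64e-05 and 5.24e-05).

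With a term for Xist in the fit, WT 1 and WT 2 alone stood for WT in the difference between the labels. These were the lowest and the highest WT library for 9 of the 10 genes. In that fit Selp (-1.03; limma, adjusted p = 0.198) and Thbs1 (-1.19; limma, adjusted p = 0.220) lost their calls, and the other 8 genes were called lower. The share of all genes tested that was called lower in that fit is not given here. The 16.8% given above is from the fit without that term. Selp also lost its call with a pseudocount of 1 (-0.92) and with quantile normalization (-0.80; limma, adjusted p = 0.120). Pf4, Ppbp, Vwf, F5, Nbeal2, Rab27b, Tubb1 and Plek were called lower in all 21 alternatives tried.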

How the data were processed

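The authors trimmed paired-end reads, aligned them to GRCm39 and deposited FPKM per gene and library (fragments scaled to gene length and library size, rounded to 2 decimals). The submitters' processing notes name cutadapt 1.9.1, HISAT2 2.0.1 and HTSeq 0.6.1, and the annotation and gene lengths are not given in the sources used here. FPKM are not counts, so log2(FPKM + 0.1) was fitted over the 18742 genes averaging 0.1 FPKM or more with limma 3.58.1 (trend, two-sided, Benjamini-Hochberg) in R 4.3.3. A call needed both an adjusted p below 0.05 and a log2 fold change of 1 or more in size. The step was tested on simulated data.

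Each depth was chosen so that low values of genes with 1 transcript came nearest to whole multiples of 1 fragment. They did so in 96.0% to 96.8% of cases (within 0.2), a share that is no check of the depth. The depths were an estimated 13794108 to 18822285 fragments per library. From these depths and GENCODE exon lengths, the members had an estimated 68 fragments or more in each library. No 2 libraries of a label agreed within sampling noise (chi-square per degree of freedom at least 7.44). Of the identifiers, 54749 of 55359 were in GENCODE on GRCm39, which gave the coordinates and transcript starts.

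Members and lists were chosen with earlier results of these data known. Besides the members, named genes were the 2 most abundant and the most lowered and raised called genes of each list, nearest neighbours (1 is not reported here) and relatives, and the targeted and sex-linked genes. Cdh5, Kdr, Emcn, Gp5, Runx1, Slamf1 and Tpsb2 were named after their values were seen. Alternatives were other pseudocounts, filters, scalings, a fit without trend, a replicate block, a term for Xist, adjusted p alone, and leaving out each library.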

Additional observations from a re-analysis of the deposited data

Results flagged for a closer look

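Rab27b in library cKO 1, at 2.34 FPKM, stood apart from the other 4 libraries labelled cKO, which were at 1.85 to 1.9, with a gap of 0.898 of the range of the 5 values. It was still below every WT library. Of the 20 sets of 5 values examined (10 genes under 2 labels) this was the 1 that stood out, and chance flags about 1 in 20.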

How the results depend on the processing

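Of the 10 genes, 8 to 10 were called lower under each of the 21 alternatives, with a median log2 fold change between -2.38 and -1.87. Selp was called in 11 and Thbs1 in 16 of them, and no direction reversed. Of all values recomputed, 803 held, 43 counts or medians moved and 15 calls were lost, those of Selp and Thbs1. Over all genes, 862 were called higher and 3153 lower. These became 356 and 1486 with a pseudocount of 1, 462 and 1827 with a mean of at least 1 FPKM (fewer genes tested), and 3138 and 5300 by adjusted p alone. Quantile normalization gave 1581 higher, raised the share of calls that were higher from 21.5% to 41.3% and moved the median of all genes from -0.11 to 0.10, and the cause was not tested. By adjusted p alone that share was 37.2%, and 17 proplatelet cytoskeleton genes were called lower, not 8. With the replicate number as a block, 857 genes were called higher, 3107 lower and all 10 genes lower. The replicate block changed no call among the 10. Libraries of the same number shared little (correlations of their deviations from -0.01 to 0.117, the best match being the own number in 3 of 5), so the numbers were not taken as pairs. FPKM keep no record of counting. Selp had the fewest estimated fragments of the 10 genes (at least 68 in each library), and the part of counting in its spread was not tested.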
